A study of Mus musculus with 24 samples.

Results

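The genes described here are the mouse zinc finger genes whose symbol is Zfp followed by digits alone, with a number in the range Zfp600 to Zfp999. Their transcripts were followed in 2 tissues of day 9.5 conceptuses (E9.5), the whole embryo and the yolk sac. Of 55421 genes listed in the deposited tables, 174 had such a symbol. Of these, 30 had a mean raw count under 20 over the 12 embryo libraries and 4 (Zfp850, Zfp865, Zfp873 and Zfp948) were set aside by name, which left 140 genes. The 140 genes sat on 18 chromosomes, most often on chromosome 7 (31 genes) and chromosome 17 (21 genes). The minimum was applied to the mean over all groups together. Just above it stood Zfp987 with a mean of 22.83 counts, Zfp981 with 27.92 and Zfp750 with 28.42, and just below it Zfp819 with 17.75, Zfp985 with 17.25 and Zfp988 with 16. Zfp987, Zfp981 and Zfp750 were also the 3 genes whose mean over the 4 WT embryo libraries was under 20, so they were included through their counts in other groups. Their rises in HO embryos are therefore given as a description, with no p-value, and count as favoured by the minimum wherever rises are counted.

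All mice were C57BL/6 and carried 1 of 2 alleles of Setd2, the methyltransferase that trimethylates histone H3 along transcribed genes (the mark H3K36me3). The null line is named for loss of the gene and the CD (catalytic dead) line for an allele without enzyme activity, which the study's title describes as derived from a patient. Each line gave wild-type (WT), heterozygous (HE) and homozygous (HO) embryos and yolk sacs, with 2 messenger RNA libraries per group and tissue, 24 in all. The lines shared no WT libraries. Whether the 2 libraries of a group came from separate animals is not stated, so p-values measure the spread between these libraries, which may be technical in part.

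C2H2 zinc finger proteins bind DNA through strings of small domains, each folded around a zinc ion held by a pair of cysteines and a pair of histidines. Many of the mouse Zfp genes also encode a KRAB box, which recruits the corepressor Trim28 (KAP1) and, through it, the histone methyltransferase Setdb1. Such KRAB proteins are known for silencing transposable elements in embryonic cells, and their genes arose by repeated duplication and lie in clusters. The bodies of KRAB zinc finger genes are themselves known to carry an unusual mixture of chromatin marks that includes H3K36me3 and H3K9me3.

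A KRAB motif was found in the translated transcripts of 92 of the 140 genes and not found in 46, and 2 had no complete translation. The search can miss diverged boxes. The proteins held a median of 11 C2H2 motifs (range 0 to 33). In all, 96 of the 140 genes lay in a cluster, meaning that the next Zfp gene started within 200 kb, and 44 stood alone. Positions are from GENCODE M21 on mm10. Transcripts of 13 genes were matched over 20% or more of their length by another gene at 97% identity, so that reads could be shared, and 30 genes overlapped another gene on the same strand and 46 a gene on the opposite strand.

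In the 4 WT embryo libraries the deposited FPKM (fragments scaled by gene length and library total) had a median of 4.18 over the 140 genes, against 3.02 over all genes tested, and ranged from 0.0628 (Zfp987) to 35.8 (Zfp664). In WT yolk sacs the median FPKM was 2.30, against 3.17 over all genes tested. All 4 WT embryo values lay above all 4 WT yolk sac values for 108 of the 140 genes, and the reverse was true of 9. The same counts were not made over all genes, so they do not set these genes apart from others. The tissues were tabulated separately, so these level differences were not tested. The 4 genes of highest FPKM in WT embryos were Zfp664 (35.8), Zfp706 (34.5), Zfp740 (26.8) and Zfp871 (25.8). The median FPKM in WT embryos was 3.35 for genes with a KRAB motif and 6.21 for genes without.

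Promoters of some genes that fell and some that rose in HO embryos are shown first, because some neighbouring genes moved together. These are not all among the genes that moved most. Zfp760 and Zfp974 fell more than Zfp954 in both lines, and Zfp951 rose more than Zfp982 in both. RefSeq (GRCm38.p6) gave promoters for 121 of the 140 genes. Each stretch runs from 250 bases before to 30 bases after a RefSeq start, 5′ to 3′ on the gene's strand. Zfp772, Zfp773 and Zfp954 are neighbours on chromosome 7 and were among the genes that fell most in HO embryos. Capitals mark TGAACTACATT, the longest word that the 3 promoters share.
Zfp772 (chr7:7209969-7210248, minus strand): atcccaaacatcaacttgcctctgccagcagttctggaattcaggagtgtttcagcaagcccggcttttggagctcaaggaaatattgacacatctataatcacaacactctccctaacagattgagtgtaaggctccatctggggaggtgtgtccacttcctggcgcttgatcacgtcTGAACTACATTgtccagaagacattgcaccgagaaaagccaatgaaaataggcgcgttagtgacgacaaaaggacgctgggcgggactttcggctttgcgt
Zfp773 (chr7:7136726-7137005, minus strand): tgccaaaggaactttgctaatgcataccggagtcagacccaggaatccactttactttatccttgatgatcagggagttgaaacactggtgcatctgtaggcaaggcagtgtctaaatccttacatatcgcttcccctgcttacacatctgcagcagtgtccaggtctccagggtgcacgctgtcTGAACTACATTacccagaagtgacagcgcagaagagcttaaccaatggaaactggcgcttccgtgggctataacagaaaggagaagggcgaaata
Zfp954 (chr7:7121447-7121726, minus strand): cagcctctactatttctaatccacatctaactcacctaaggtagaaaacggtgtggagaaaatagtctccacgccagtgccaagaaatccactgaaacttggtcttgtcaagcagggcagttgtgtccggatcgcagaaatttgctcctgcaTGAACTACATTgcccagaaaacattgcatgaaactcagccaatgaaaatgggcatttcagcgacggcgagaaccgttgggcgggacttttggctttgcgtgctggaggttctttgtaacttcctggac

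These 3 promoters were 55.4% to 60% identical to each other over 280 bases. The shared word begins at position -71 in Zfp772, -65 in Zfp773 and -98 in Zfp954, counted from the start site. On either strand, TGAACTACATT was in the promoters of 14 of 27025 genes (0.0518%) and of 5 of the 121 genes with a promoter here (4.13%). All 5 fell in null embryos, but the word was taken from 3 of them, which were picked because they fell, so the count is a description. CpG dinucleotides numbered 11 per promoter at the median of the 121 genes against 7 over all genes.

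Zfp981, Zfp982 and Zfp987 lie on the distal part of chromosome 4, each in a separate cluster. They were higher in HO embryos of both lines, although the CD call of Zfp982 was lost in most other fits. Capitals mark TGGTCAGGAAGTC, the longest word that the 3 share within 30 bases of the start. The RefSeq start of Zfp981 used here lies 12893 bases inside the GENCODE gene.
Zfp981 (chr4:146514670-146514949, plus strand): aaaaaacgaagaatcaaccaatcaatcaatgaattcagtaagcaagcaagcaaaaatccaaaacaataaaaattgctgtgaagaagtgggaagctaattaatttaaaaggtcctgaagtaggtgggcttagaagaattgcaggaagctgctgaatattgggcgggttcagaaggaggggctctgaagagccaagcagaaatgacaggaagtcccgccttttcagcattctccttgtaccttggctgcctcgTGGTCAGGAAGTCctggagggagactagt
Zfp982 (chr4:147492167-147492446, plus strand): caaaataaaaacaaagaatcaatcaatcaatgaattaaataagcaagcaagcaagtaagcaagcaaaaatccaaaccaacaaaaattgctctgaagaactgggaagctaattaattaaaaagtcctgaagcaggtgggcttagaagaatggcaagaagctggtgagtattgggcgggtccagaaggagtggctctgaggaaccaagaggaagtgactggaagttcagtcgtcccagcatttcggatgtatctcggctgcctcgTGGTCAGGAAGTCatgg
Zfp987 (chr4:146097062-146097341, plus strand): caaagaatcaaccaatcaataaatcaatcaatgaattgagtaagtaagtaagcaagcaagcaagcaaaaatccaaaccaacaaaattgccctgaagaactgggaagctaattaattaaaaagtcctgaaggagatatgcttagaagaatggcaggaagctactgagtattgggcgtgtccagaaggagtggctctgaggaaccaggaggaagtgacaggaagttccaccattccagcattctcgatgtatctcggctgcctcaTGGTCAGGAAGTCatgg

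These 3 were 80.7% to 88.2% identical to each other. On either strand, TGGTCAGGAAGTC was in the promoters of 5 of 27025 genes (0.0185%), these 3 among them, and in no other of the 121. The word was taken from these 3, which were picked because they were higher and whose promoters are alike throughout, so the count is a description. They held 3 to 5 CpG dinucleotides each, against 7 to 11 in the chromosome 7 group above.

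Setd2 itself was measured in every library as a check of the labels. In embryos it stood at 232 and 229 CPM (read counts scaled to a common library total with TMM factors) in null WT, 169 and 157 in null HE, and 93.3 and 104 in null HO. In the CD line, whose allele is not meant to remove the transcript, the embryo values ran from 213 to 255 CPM. In yolk sacs, Setd2 was 102 and 114 CPM in the null libraries labelled WT, 114 and 120 in HE and 75.6 and 78.9 in HO, whereas CD yolk sacs held 170 to 194. The null yolk sac libraries labelled WT therefore stood at the level of the HE libraries, against their label, and every null yolk sac comparison rests on them.

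Several other measures moved with genotype. By Xist and Y-linked transcripts, both CD WT embryo libraries were male and both CD HO female, the null WT embryos were female and the null HO pair held 1 of each sex. In yolk sacs, both CD WT libraries were female and both CD HO male. Sex and genotype thus cannot be told apart inside the CD line except through the other groups. Both null HE embryo libraries were male, so the same holds for HE against WT in null embryos. CD yolk sac HE replicate 2 held both Xist and Y-linked transcripts. The CD WT embryo replicate 2 held 811 CPM of summed visceral endoderm markers (13 genes such as Afp and Ttr) against 34.2 to 125 in the other embryo libraries of the line. Somite and mesoderm markers summed to 159 and 161 CPM in null WT embryos and 51.5 and 30.1 in null HO, and 6 of 7 fell in null HO and 5 of 7 in CD HO embryos. Neural tube markers fell for 6 of 9 in null HO and 3 of 9 in CD HO embryos. Visceral endoderm markers fell for 10 of 12 tested in CD HO embryos (median log2 change -3.88). Primitive erythroid markers fell for 5 of 10 in null HO embryos (median -1.76), with a sum of 1376 and 98.5 CPM against 2158 and 3182 in null WT. Of 6 trophoblast and decidua markers tested, 4 rose and 1 fell in null HO embryos. Of all genes tested, 16.5% fell and 16.2% rose in null HO embryos, and 9.14% fell in CD HO embryos. In HO yolk sacs, visceral endoderm markers fell for 5 of 13 in the null and 3 of 13 in the CD line, against 3.97% and 1.89% of all genes. The null sums were 44079 and 41062 CPM in libraries labelled WT and 33872 and 30250 in HO. Primitive erythroid sums in CD WT yolk sacs were 9064 and 28202 CPM. In whole embryos and yolk sacs, fewer cells of a type and less RNA per cell cannot be told apart. The part of these shifts in the results that follow was not tested beyond the fits named there.

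The first comparison asked which of the 140 genes differed between HO and WT embryos. In null embryos 55 of the 140 genes fell and 21 rose (edgeR quasi-likelihood test, Benjamini-Hochberg adjusted p under 0.05 over 19215 genes). Falls thus made up 39.3% of these genes against 16.5% of all genes tested, and rises 15% against 16.2%. In CD embryos 44 fell and 9 rose, or 31.4% and 6.43%, against 9.14% and 6.92% of all genes. The median log2 change was -0.20 in the null line and -0.17 in the CD line, beside 0.015 and 0.0024 over all genes tested. The rises include Zfp750, Zfp981 and Zfp987 in each line. The 185 other Zfp genes, Zfp1 to Zfp599, had 73 falls and 10 rises in null embryos and 61 falls and 5 rises in CD embryos. The lower share of rises there was not tested against that of the 140 genes.

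A fall to below 1/2 of the WT level (1 log2 unit) was called for 12 genes in null embryos and 11 in CD embryos. The share of all genes with calls of that size was not counted, so these numbers are a description. Zfp760 on chromosome 17 (21707741 to 21725636) encodes a KRAB protein with 16 C2H2 motifs. It stood at 44.2 and 50 CPM in null WT embryos, 43.5 and 42.9 in HE and 11.3 and 8.09 in HO. CD embryos held 45.8 and 43.1 CPM in WT, 36.4 and 43.3 in HE and 8.04 and 5.53 in HO. All 4 HO libraries lay far below all 8 others. Its log2 change was -2.28 ± 0.17 (SE) in the null line (edgeR adjusted p = 3.16e-06) and -2.70 ± 0.17 in the CD line (edgeR adjusted p = 1.63e-06).

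On chromosome 7, Zfp772, Zfp773 and Zfp954 make up all the members of a cluster of 5 Zfp genes (6977246 to 7209998), and all 3 fell in both lines. Each carries a KRAB motif and 8 C2H2 motifs. Zfp772 went from 10 and 9.62 CPM in null WT to 1.81 and 1.80 in null HO, and from 7.47 and 9 CPM in CD WT to 1.84 and 2.44 in CD HO. Its log2 change was -2.44 ± 0.18 in the null line (edgeR adjusted p = 3.76e-06) and -1.95 ± 0.18 in the CD line (edgeR adjusted p = 4.05e-05). Zfp773 went from 2.94 and 2.89 CPM to 0.424 and 0.335 in the null line, and from 1.85 and 2.71 to 0.115 and 0.257 in the CD line, the largest fall among the 140 genes in both lines (log2 change -2.92 ± 0.33 and -3.60 ± 0.38). Its 2 CD HO libraries held 3 and 6 reads. Zfp954 fell by 1.69 ± 0.18 and 1.08 ± 0.18 on the log2 scale. For none of the 3 did HO and WT libraries overlap in either line.

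Zfp974 (chromosome 7, 27907392 to 27929460), which holds 21 C2H2 motifs, stood at 13.1 and 14.7 CPM in null WT and 3.05 and 2.64 in null HO. The CD values were 12.5 and 13.3 CPM in WT against 2.72 and 2.23 in HO. Its log2 change was -2.28 ± 0.17 in the null line (edgeR adjusted p = 4.31e-06) and -2.38 ± 0.18 in the CD line (edgeR adjusted p = 6.69e-06). Zfp655 on chromosome 5 was among the tightest across libraries. It stood at 49.4 and 49.3 CPM in null WT and 52.0 and 50.8 in CD WT, against 22.9 and 25.6 in null HO and 21.9 and 22.2 in CD HO, log2 changes of -1.03 ± 0.080 and -1.22 ± 0.080. Zfp606 on chromosome 7, which encodes a KRAB repressor, fell from 53.0 and 55.0 to 21.6 and 26.9 CPM in the null line and from 48.5 and 47.8 to 25.8 and 21.3 in the CD line.

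**Figure D1:**
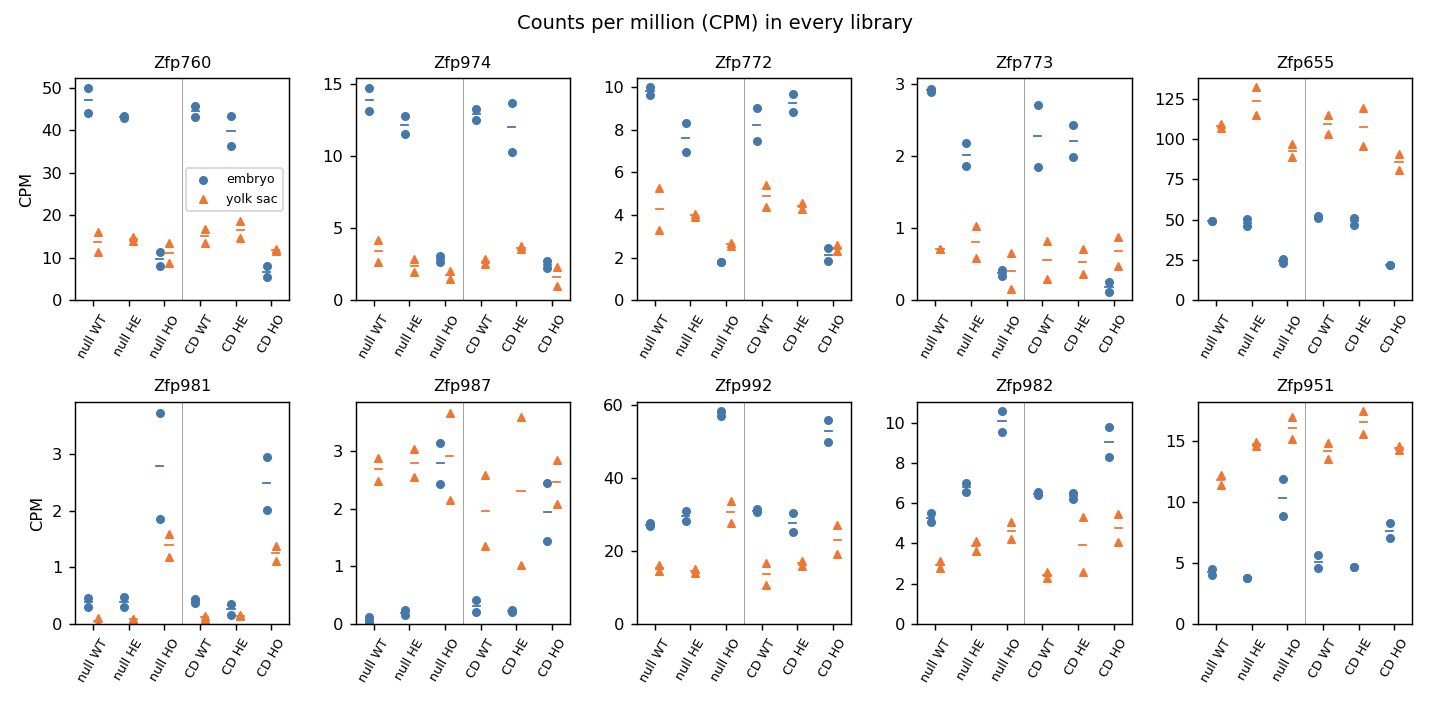
CPM (y axis, linear from 0) of 10 genes in every library, by line and genotype (x axis). Circles are embryo libraries, triangles yolk sac libraries and short bars the mean of 2 libraries. In the upper row the HO embryos lie below all WT and HE embryos, and in the lower row above them. HE and WT lie close together for most of the genes. For Zfp982 in null embryos the log2 change of HO was 0.93 against WT and 0.57 against HE. Zfp655 is higher in yolk sacs than in embryos.

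Log2 changes of the other falling genes of smallest p were smaller than those of Zfp760, Zfp772, Zfp773 and Zfp974. In null embryos Zfp952 fell by 1.15 ± 0.11 on the log2 scale, Zfp647 by 1.07 ± 0.096, Zfp787 by 1.06 ± 0.10, Zfp846 by 0.98 ± 0.087 and Zfp629 by 0.93 ± 0.067. In CD embryos Zfp820 fell by 1.33 ± 0.15, Zfp995 by 1.27 ± 0.14, Zfp952 by 0.95 ± 0.11, Zfp846 by 0.77 ± 0.087, Zfp629 by 0.72 ± 0.067 and Zfp945 by 0.58 ± 0.066. Zfp629, with 19 C2H2 motifs, shows how small the spread was, at 95.2 and 85.9 CPM in null WT against 48.2 and 46.7 in null HO, and 88.7 and 86.8 against 54.4 and 51.9 in the CD line. Of these, Zfp647, Zfp787, Zfp820, Zfp995 and Zfp945 fell in the other line too (largest edgeR adjusted p = 0.000512, Zfp995).

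Among the 4 genes of highest FPKM, Zfp664 fell slightly in both lines, from 290 and 285 to 230.0 and 230.0 CPM in the null line and from 280.0 and 266 to 236 and 238 in the CD line. The CD call of Zfp664 was lost with the WT and HO groups alone (-0.20) and with a sex term (-0.19). It was lost too without CD HO replicate 1 (-0.20) or CD WT replicate 1 (-0.17). Zfp871 fell in the null line by 0.16 ± 0.047 (edgeR adjusted p = 0.0236) and was not called in the CD line, at -0.13 ± 0.047. Its null call was lost against HE (-0.11), with the WT and HO groups alone (-0.17) and with a sex term (-0.14). The same was true without null HO replicate 1 (-0.13) or either null WT library (-0.16). Zfp706, the smallest protein of the set at 76 residues, and Zfp740 were not called, with log2 changes of -0.036 ± 0.054 and -0.013 ± 0.046 in the null line and -0.034 ± 0.054 and -0.0099 ± 0.046 in the CD line.

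Rises of 1 log2 unit or more were called for 7 genes in null embryos and 3 in CD embryos, with no share over all genes counted at that size. All 3 in the CD line, and 3 of the 7 in the null line, were Zfp987, Zfp981 and Zfp750, which passed the count minimum through the libraries where they are high. Zfp987 (chromosome 4, 146097298 to 146126621), a KRAB gene, was nearly silent in WT embryos. It had 3 and 1 reads in null WT and 63 and 75 in null HO, which put it at 0.116 and 0.0380 CPM against 2.43 and 3.15. The depth-scaled ratio of the summed reads was 36.2 with an exact 95% interval of 13.8 to 135, which covers counting error only. CD embryos had 5 and 10 reads in WT and 38 and 57 in HO, a ratio of 6.27 (3.61 to 11.6). Its transcript is matched over 98.0% by the predicted gene Gm8935, which rose as well (log2 change 6.31, edgeR adjusted p = 0.0254, in null and 6.5, edgeR adjusted p = 0.0389, in CD embryos), so reads of the pair cannot be assigned with confidence.

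Zfp981 (chromosome 4, 146502027 to 146539395) stood at 0.309 and 0.456 CPM in null WT, 0.309 and 0.477 in HE and 1.85 and 3.73 in HO embryos. CD embryos held 0.442 and 0.375 CPM in WT, 0.159 and 0.359 in HE and 2.95 and 2.02 in HO. The HO libraries lay above all others in each line, and the log2 changes were 2.84 ± 0.44 and 2.59 ± 0.45. Its neighbour Zfp992 was far more abundant, at 26.9 and 27.6 CPM in null WT against 57.0 and 58.4 in HO, and at 30.7 and 31.4 in CD WT against 50 and 56 in HO. The log2 changes of Zfp992 were 1.08 ± 0.093 (edgeR adjusted p = 1.03e-05) and 0.77 ± 0.093 (edgeR adjusted p = 0.000243). Zfp991, whose protein is 99.0% identical to that of Zfp992, changed by 0.46 ± 0.12 in the null line (edgeR adjusted p = 0.0117) and 0.30 ± 0.12 in the CD line (not called). Their transcripts share long near-identical stretches, so the split of reads between them is uncertain.

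Zfp750, which encodes a regulator of epidermal differentiation, went from 10 and 15 reads in null WT to 92 and 63 in null HO embryos, and from 17 and 16 to 47 and 44 in the CD line. Its log2 change was 2.68 ± 0.42 and 1.44 ± 0.42. Zfp750 overlaps Tbcd on the opposite strand. Zfp951 rose by 1.29 ± 0.18 and 0.58 ± 0.18, Zfp982 by 0.93 ± 0.13 and 0.48 ± 0.13 and Zfp622, a ribosome assembly factor outside the KRAB family, by 0.52 ± 0.072 and 0.32 ± 0.072 in null and CD embryos. The CD call of Zfp982 was lost with DESeq2, with no filter, with the WT and HO groups alone, with a sex term (0.37) and without any 1 of the 4 libraries (0.35 to 0.57). That of Zfp951 was lost with DESeq2, with those groups alone, with a sex term (0.35) and without CD HO replicate 1 (0.45), CD HO replicate 2 (0.67) or CD WT replicate 2 (0.43). That of Zfp622 was lost without CD HO replicate 1 (0.34), CD HO replicate 2 (0.29) or CD WT replicate 1 (0.29). That of Zfp750 was lost with DESeq2 (1.44) and without any 1 of the 4 libraries (1.39 to 1.48). Zfp979 rose by 1.13 ± 0.14 in null embryos and was 0.42 ± 0.14 higher in CD embryos (edgeR adjusted p = 0.0635).

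Of the genes that fell, 39 did so in both lines, which is 70.9% of the null falls and 88.6% of the CD falls. Of the genes that rose, 9 did so in both, which is 42.9% of the null and 100% of the CD rises. These shared rises include Zfp987, Zfp981 and Zfp750, which passed the count minimum through the libraries where they are high. No gene was called in opposite directions, and 59 were called in neither line. Of the 76 genes called in null embryos, 74 had the same sign in CD embryos. Across the 140 genes the 2 sets of log2 changes had a Pearson correlation of 0.91. This is a description over genes that are not independent replicates, from separate libraries scaled together. Zfp987, Zfp981 and Zfp750 lie at its high end. Neither the overlaps nor the correlation were computed over all genes, so agreement between the lines is not shown to be particular to these genes.

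The difference between the lines was also tested directly. With edgeR, 0 of the 140 genes differed in HO effect between the lines in embryos and 0 of 139 in yolk sacs, beside 0.0208% and 0.0282% of all genes tested. At an unadjusted p under 0.05 there were 18 in embryos and 4 in yolk sacs. Over all genes these were 2580 of 19215 and 588 of 17755. DESeq2 called 0 of the Zfp genes in each tissue. The 2 of smallest p in embryos were Zfp979, with a CD effect lower by 0.71 ± 0.20 on the log2 scale (edgeR adjusted p = 0.201), and Zfp811, with a CD effect higher by 0.50 ± 0.15 (edgeR adjusted p = 0.243). Zfp811 stood at 27 and 26.1 CPM in null WT, 14.5 and 15.3 in null HO, 20.2 and 19 in CD WT and 17.1 and 13.9 in CD HO. In yolk sacs they were Zfp937 (0.98 ± 0.41) and Zfp809 (-0.38 ± 0.17), both with an edgeR adjusted p = 1. Without null HO embryo replicate 1, 5 genes differed between the lines in embryos.

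**Figure D2:**
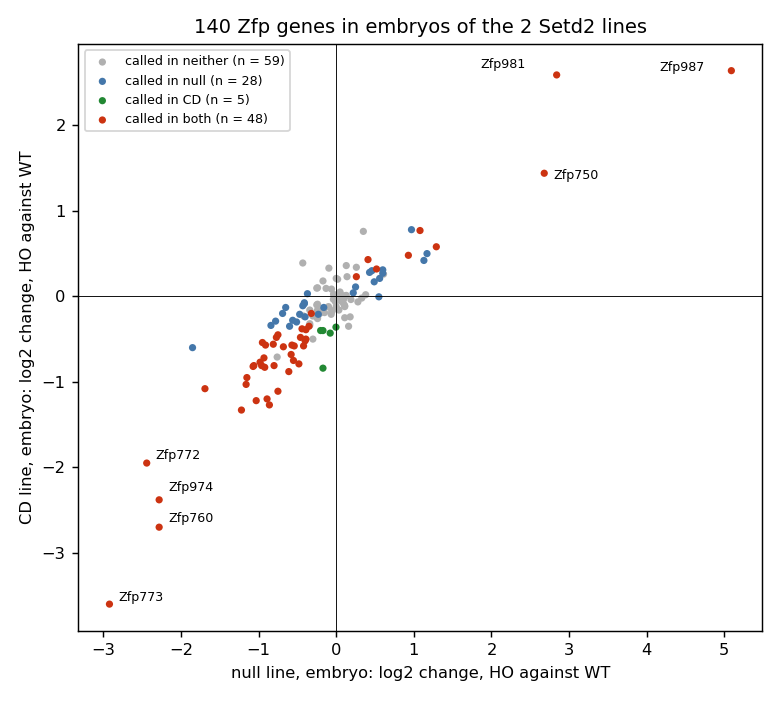
Log2 change of HO against WT in null embryos (x axis) and CD embryos (y axis) for the 140 genes, each point a gene, coloured by the line in which it was called. The points lie along a rising diagonal, with Zfp760, Zfp772, Zfp773 and Zfp974 at the low end and Zfp981, Zfp987 and Zfp750 at the high end, and no gene called in both lines lies in an upper left or lower right quadrant.

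The CD counts depended on the fit and on single libraries. With a term for sex fitted over all groups, 50 genes fell and 21 rose in null embryos, close to the counts without it, but in CD embryos 27 fell and 5 rose. Named CD calls lost with that term often had a similar log2 change in it, such as Zfp664 (-0.20 without and -0.19 with the term), Zfp809 (-0.36 and -0.39) and Zfp947 (-0.84 and -1.14), while those of Zfp951 (0.58 and 0.35) and Zfp982 (0.48 and 0.37) were smaller. Without CD WT embryo replicate 2, the library high in visceral endoderm markers, 46 fell and 5 rose in the CD line. Without CD HO replicate 1 the CD line had 32 falls and 3 rises, without CD HO replicate 2 it had 30 and 3, and without CD WT replicate 1 33 and 5. In the null line, leaving out the male HO replicate 1 left female libraries alone in the comparison, and 47 genes fell and 23 rose. Against HE embryos in place of WT, 44 fell and 21 rose in null HO, and 41 fell and 13 rose in CD HO.

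There were 12 clusters with 3 or more of the genes. The largest, on chromosome 17 (21383748 to 22456689), held 12 of the genes, each with a KRAB motif. Of these, 9 fell in null and 10 in CD embryos, and none rose, with a median log2 change of -0.67 and -0.83. Besides Zfp760 and Zfp820, which fell by 1.22 ± 0.14 in the null line, they included Zfp983, Zfp994, Zfp944 and Zfp758. Zfp677 at one edge and Zfp946 at the other were not called in either line. Zfp947 and Zfp995 lie in this cluster and their proteins are 90.4% identical. Zfp995 fell in both lines (-0.86 ± 0.13 and -1.27 ± 0.14), whereas Zfp947 was called in the CD line (-0.84 ± 0.22, edgeR adjusted p = 0.024) and not in the null line (-0.17 ± 0.22). The CD call of Zfp947 was lost with DESeq2 (-0.85), with the WT and HO groups alone (-0.84), with a sex term (-1.14), against HE (-0.43) and without CD WT replicate 1 or either CD HO library (-0.74 to -0.87).

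A second chromosome 17 cluster (32765496 to 33110705) held 6 of the genes, of which 5 fell in null and 2 in CD embryos. Zfp952 and Zfp763 fell in both lines. On chromosome 7, 5 of 7 genes between 127233061 and 127615797 fell in null and 3 in CD embryos, among them Zfp629, Zfp689 and Zfp764. In the clusters on chromosome 4 the calls in null embryos were rises, while Zfp618, which stands alone on that chromosome, fell (-0.47). In the chromosome 4 cluster from 146449023 to 146658160, Zfp992, Zfp981 and Zfp993 all rose in null embryos and 2 of the 3 in CD embryos. In the next one, from 146971976 to 147848366, 4 of 5 rose in null embryos, namely Zfp991, Zfp982, Zfp979 and Zfp984, and in CD embryos 1 rose (Zfp982) and 1 fell. The fifth, Zfp933, was not called in null embryos (-0.17 ± 0.12) and fell in CD embryos (-0.40 ± 0.12, edgeR adjusted p = 0.044). Zfp984, whose protein is 80.5% identical to that of Zfp991, rose by 0.49 ± 0.12 in the null line and was 0.17 ± 0.12 higher, not called, in the CD line. Zfp991 is matched over 88.5% of its transcript by Zfp992, and Zfp993 over 100% by Zfp991. Zfp984 is matched over 57.4% by Gm13212 and Zfp979 over 21% by Zfp978. Reads of these chromosome 4 genes can be shared, so their rises may not be separate.

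A smaller group of 3 on chromosome 7 (42473386 to 42692742), Zfp975, Zfp976 and Zfp977, rose in null embryos by 0.55 to 1.17 and was not called in the CD line. On chromosome 6 (47819266 to 48086593) the 5 genes went both ways, with Zfp786 (-0.65 ± 0.18) and Zfp783 (-0.37 ± 0.11) falling and Zfp746 (0.26 ± 0.068) rising in null embryos, and Zfp746 alone called, as a rise, in CD embryos. The cluster on chromosome 8 from 69610857 to 69791178 had 0 of 5 genes called in null embryos and 1 in CD embryos, Zfp868, which fell (-0.40 ± 0.10). In the other chromosome 8 cluster, 2 of 4 fell in null embryos (Zfp617 and Zfp961) and 1 in CD embryos (Zfp617). The null call of Zfp961 (-0.23) was lost with DESeq2, with no filter, with the WT and HO groups alone and with a sex term (-0.17). It was lost too against HE (-0.22) and without any 1 of the null WT and HO libraries (-0.21 to -0.28). On chromosome 9, 0 of 3 were called in null embryos and 1 fell in CD embryos (Zfp809, -0.36). That call was lost with DESeq2, with no filter, with the WT and HO groups alone and with a sex term (-0.39). It was lost too against HE (-0.24) and without any 1 of the CD WT and HO libraries (-0.32 to -0.41). On chromosome 13, 1 of 5 fell in each line, Zfp738. These clusters were described after the values were seen and were not tested as groups.

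**Figure D3:**
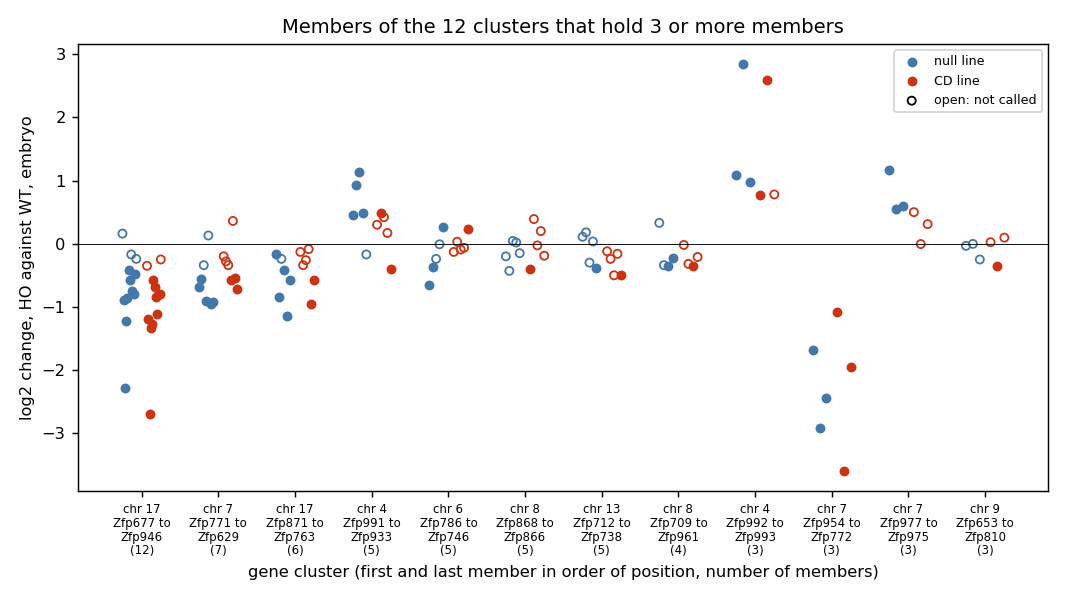
Log2 change of HO against WT in embryos (y axis) for the genes of the 12 clusters with 3 or more of them (x axis, with chromosome, first and last gene and number). Blue points are the null line, red the CD line, and open points were not called. The chromosome 17 and first chromosome 7 clusters lie mostly below 0, the group of Zfp954, Zfp773 and Zfp772 lowest, and the 2 chromosome 4 clusters mostly above 0.

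By protein class, 41.3% of the 92 genes with a KRAB motif fell in null embryos and 37.0% in CD embryos, against 34.8% and 21.7% of the 46 without. Genes in clusters fell in 45.8% and 38.5% of cases and genes standing alone in 25% and 15.9%. Of the 100 genes with 8 or more C2H2 motifs, 46 fell and 11 rose in null embryos and 38 fell and 3 rose in CD embryos. Of the 38 with 7 or fewer, 8 fell and 10 rose in the null line and 6 fell and 6 rose in the CD line. The Spearman correlation of the log2 change with the number of motifs across 138 genes was -0.15 in the null line and -0.23 in the CD line. With FPKM in WT embryos it was 0.010 and -0.056 over the 140 genes. These shares describe the genes and overlap, since KRAB genes are clustered and hold many fingers, and they were not tested against each other.

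Of 25 corepressor genes, among them Trim28, Setdb1, the HP1 genes and the NuRD subunits, 9 fell and 6 rose in null embryos and 6 fell and 1 rose in CD embryos, with medians of -0.044 and -0.069. Among all genes tested, 16.5% fell and 16.2% rose in null embryos, and 9.14% fell and 6.92% rose in CD embryos. The counts were not tested against these shares. Genes that fell in both lines included Chd3, Cbx1, Atrx and Mta2. Atrx, which deposits histone H3.3 with Daxx, changed by -0.40 and -0.44, and Rbbp7 rose by 0.40 and 0.18. Trim28 and Setdb1 were not called in either line. None of the 25 was called in yolk sacs by edgeR. Of all genes tested there, 3.97% fell and 2.30% rose in the null line, and 1.89% fell and 1.27% rose in the CD line.

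Heterozygous embryos and yolk sacs showed no call. edgeR found 0 of 140 genes in embryos and 0 of 139 in yolk sacs in each line, and DESeq2 found 0 as well. Among all genes tested the share called was 0.0104% in null and 0.0156% in CD embryos, and 0% in each yolk sac comparison. At an unadjusted p under 0.05 there were 10 genes in null and 8 in CD embryos, against 464 and 1693 of all 19215 tested. Yolk sacs had 3 in the null and 6 in the CD line, against 360 and 665 of all 17755. In null embryos the 2 of smallest p were Zfp970, at 13.8 and 14.1 CPM in WT, 10.7 and 11.9 in HE and 9.91 and 9.69 in HO, and Zfp788, at 29.7 and 30.4 in WT, 26.2 and 25.3 in HE and 21.4 and 22.9 in HO. Both were called lower in null HO embryos and lay between WT and HO in HE. The null HE libraries were male and the null WT libraries female, so sex and genotype cannot be told apart in these HE values. In CD embryos they were Zfp677 (-0.81 ± 0.20, edgeR adjusted p = 0.377) and Zfp652 (-0.21 ± 0.074, edgeR adjusted p = 0.467).

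In yolk sacs the HE genes of smallest p were Zfp628 (-0.52 ± 0.18) and Zfp934 (0.39 ± 0.16) in the null line, both with an edgeR adjusted p = 1. Those of the CD line were Zfp950 (0.50 ± 0.12) and Zfp961 (0.47 ± 0.17), both with an edgeR adjusted p = 0.995. CD HE yolk sac replicate 2 held transcripts of both sexes, and its part in these values was not tested. The WT groups of the 2 lines did not differ at any of the genes by edgeR, beside 0.0312% of all genes in embryos and 0.0451% in yolk sacs. At an unadjusted p under 0.05 there were 15 genes in embryos and 6 in yolk sacs. Over all genes these were 2835 of 19215 and 1175 of 17755. DESeq2 called 1 of the Zfp genes in each tissue. Zfp811 (-0.44 ± 0.11, edgeR adjusted p = 0.112) and Zfp687 (0.18 ± 0.053, edgeR adjusted p = 0.152) had the smallest p in embryos, and Zfp950 (-0.67 ± 0.12, edgeR adjusted p = 0.199) and Zfp964 (-1.25 ± 0.51, edgeR adjusted p = 0.75) in yolk sacs.

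In yolk sacs few of the 139 tested genes were called in HO. In the null line 4 rose and 0 fell, or 2.88% and 0%, against 2.30% and 3.97% of all 17755 genes tested. For the CD line 2 rose and 1 fell, or 1.44% and 0.719%, against 1.27% and 1.89% of all genes. Null falls numbered 0 by edgeR beside 3 by DESeq2. In either direction, 25 genes had an unadjusted p under 0.05 in the null line, against 3891 of all 17755. Yolk sac libraries varied more than embryo libraries (common biological coefficient of variation 0.165 against 0.087), so a given change was harder to call. Among Zfp1 to Zfp599, 9 fell and 0 rose in the null line and 2 fell and 0 rose in the CD line.

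Zfp981 rose in the yolk sacs of both lines and was the gene called in all 4 HO comparisons, each time as a rise. Its embryo calls rest on the counts that let it in, and the CD embryo call was lost with a sex term (2.05). Its yolk sac calls do not rest on the count minimum, but its mean there was 10 counts, most of them in HO. It passed the edgeR filter there through HO libraries, so its yolk sac p-values may be favoured as well. It had 0 and 2 reads in the null libraries labelled WT against 34 and 22 in HO, a depth-scaled ratio of 27.7 with an exact 95% interval of 7.31 to 234 from counting error. CD yolk sacs had 3 and 2 reads in WT against 24 and 23 in HO, a ratio of 9.98 (3.99 to 32.2). The edgeR adjusted p was 0.00872 and 0.0369. Zfp992 rose in null yolk sacs from 14.5 and 16.2 CPM to 33.6 and 27.8 (1.0 ± 0.22, edgeR adjusted p = 0.0212) and was 0.75 ± 0.22 higher in CD yolk sacs (edgeR adjusted p = 0.0871).

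Zfp934 stood at 10.1 and 9.93 CPM in the null libraries labelled WT, 13.1 and 13.2 in HE and 17.7 and 18.3 in HO (0.84 ± 0.16, edgeR adjusted p = 0.011). Zfp703, a transcriptional regulator without a C2H2 motif in the search, rose by 1.04 ± 0.26 in null yolk sacs (edgeR adjusted p = 0.0333) and by 0.41 ± 0.13 and 0.43 ± 0.12 in null and CD embryos. Its null embryo value was 0.15 without HO replicate 1, and that call was lost too without WT replicate 1 (0.50) or WT replicate 2 (0.32). Its CD embryo call was lost without any 1 of the 4 libraries (0.35 to 0.48). Its null yolk sac value was 0.68 without WT replicate 2. In the CD yolk sac Zfp641 rose from 2.44 and 2.82 to 4.6 and 7.24 CPM (1.16 ± 0.27, edgeR adjusted p = 0.0395). Zfp952 fell there from 15.2 and 14.1 to 7.30 and 9.51 CPM (-0.80 ± 0.18, edgeR adjusted p = 0.0328), so that it fell in 3 of the 4 HO comparisons. The CD yolk sac calls of Zfp981, Zfp641 and Zfp952 were lost with the sex term and when the 2 groups were fitted alone, with similar log2 changes. With the sex term these were 2.93, 1.27 and -0.84, and with the groups alone 3.27, 1.17 and -0.80. Leaving out null HO yolk sac replicate 1, the male library, left 0 of the null yolk sac calls, and leaving out the other null libraries left 1 or 2.

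Genes that fell in embryos were often lower in yolk sacs, where Zfp952 in the CD line was the 1 called. In the null line 41 of the 54 that could be tested were lower, with a median log2 change of -0.18, and in the CD line 39 of 44, with a median of -0.35. Over all 139 genes tested, 67 were lower in null and 74 in CD yolk sacs. Of the 21 that rose in null embryos 18 were higher in yolk sacs (median 0.42), and of the 9 that rose in CD embryos 6 (median 0.33).

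**Figure D4:**
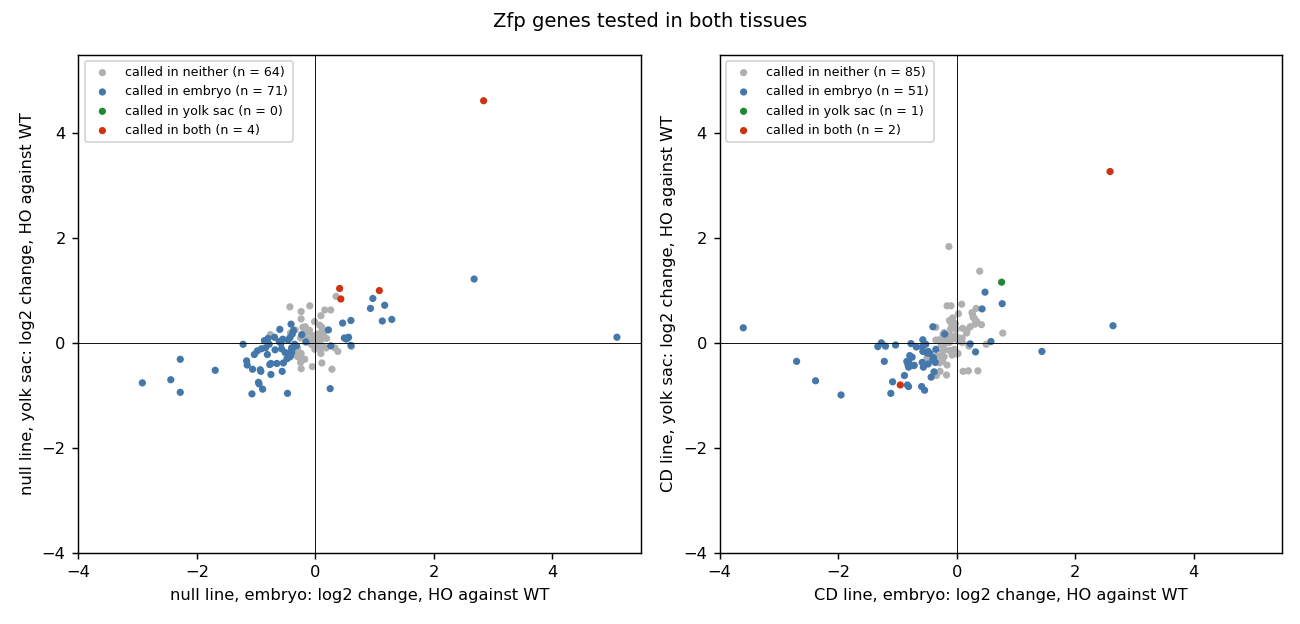
Log2 change of HO against WT in embryos (x axis) and yolk sacs (y axis) for the 139 genes tested in both tissues, null line on the left and CD line on the right, coloured by where a gene was called. The genes that fell most in embryos lie near 0 to -1 in yolk sacs, Zfp981 is high in both tissues, and Zfp987 (far right) is near 0 in yolk sacs.

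The tissue difference in HO effect was tested in a fit of all 24 libraries. In the null line the HO effect was higher in yolk sacs for 12 of the 140 genes and lower for 3 (8.57% and 2.14%), against 4.28% and 5.83% of all 20543 genes. In the CD line it was higher for 9 and lower for 0 (6.43% and 0%), against 1.79% and 1.15%. Zfp760 differed in both lines, by 1.94 ± 0.30 (edgeR adjusted p = 0.000656) and 2.35 ± 0.31 (edgeR adjusted p = 0.000329). In yolk sacs it stood at 11.3 and 16.1 CPM in the null libraries labelled WT against 13.4 and 8.69 in HO, and at 13.4 and 16.7 in CD WT against 11.7 and 12 in HO. Those ranges overlap in the null line and do not in the CD line. Zfp655, at 109 and 107 CPM against 96.8 and 88.8 in null yolk sacs, differed by 0.77 ± 0.15 (edgeR adjusted p = 0.00365) and 0.87 ± 0.15 (edgeR adjusted p = 0.00478).

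Zfp772 differed between tissues in the null line, by 1.70 ± 0.32 (edgeR adjusted p = 0.0029), and Zfp773 and Zfp995 in the CD line, by 3.88 ± 0.81 (edgeR adjusted p = 0.0161) and 1.27 ± 0.26 (edgeR adjusted p = 0.0133). The largest difference was that of Zfp987, which rose in null embryos but stood at 2.88 and 2.49 CPM in the null yolk sacs labelled WT, 2.15 and 3.67 in HO (difference -5.01 ± 0.87, which rests on the embryo counts that let it in). Its WT yolk sac level was therefore already close to that of HO embryos. In the CD line the sexes of WT and HO libraries were opposite in the 2 tissues, and with the sex term 0 of the 9 tissue differences were called. The differences of Zfp606 (1.05), Zfp655 (0.94), Zfp846 (0.75) and Zfp995 (1.57) were as large or larger with that term, and those of Zfp760 (1.62), Zfp773 (2.30), Zfp820 (0.63) and Zfp974 (0.86) were smaller.

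The 4 Zfp genes in the same number range that were set aside by name also fell in embryos of both lines. Their log2 change in embryos was -4.19 ± 0.14 and -4.67 ± 0.15 for Zfp850, -4.22 ± 0.17 and -3.20 ± 0.15 for Zfp873, -1.92 ± 0.13 and -2.69 ± 0.13 for Zfp948 and -0.86 ± 0.082 and -0.75 ± 0.081 for Zfp865 (null and CD line).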

How the data were processed

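Messenger RNA libraries of embryos and yolk sacs were read as 2 deposited tables of raw counts per gene with FPKM beside them. Trimming with fastp 0.22.0, alignment with HISAT2 2.2.1 to mm10 and counting with featureCounts 2.0.1 are named in the submitters' processing notes, as is DESeq2 1.32.0. Strand use and the handling of reads with several matches are not stated in those notes or the labels. The authors deposited counts, which were tested as they stand. The deposited FPKM values equalled count over length and library total in all 610636 values checked (tolerance 0.001 of the value) and serve for levels between genes. Library totals were 23414255 to 27674831 counts in embryos and 16400137 to 22113787 in yolk sacs.

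The tissues were fitted separately with edgeR 4.0.16 (R 4.3.3): filterByExpr defaults (minimum count 10, total 15), TMM scaling, all 12 libraries, 1 coefficient per group, 6 residual degrees of freedom, quasi-likelihood F-test, Benjamini-Hochberg adjustment over all genes tested. A gene is called, or rose or fell, at an adjusted p under 0.05. A joint fit of 24 libraries gave the tissue difference. The fit was tested on simulated data. Replicates differed beyond sampling noise (chi-square per degree of freedom 2.77 to 28.7), so none was counted as a repeated deposit.

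Alternatives were library totals, DESeq2 1.42.0, no filter, the contrast's groups alone, a replicate block, a sex term, HO against HE, each library left out and other count minimums. A count without genes that have near-identical copies was added after seeing the data. KRAB boxes and C2H2 motifs were searched in translated GENCODE M21 transcripts, copies with blastn 2.17.0+ (97% identity over 100 bases), and protein identity came from global alignments. Named genes are, per embryo HO comparison, the 12 falling and 6 rising genes of smallest p, per yolk sac HO comparison up to 5 each way, those called in 3 or 4 HO comparisons, up to 4 per other comparison (the 2 of smallest p where none was called), the 4 of highest FPKM and the 3 protein pairs most alike. Further genes named with their cluster were chosen after their values were seen. Genes, lists and rules were chosen with earlier results of these data known.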

Additional observations from a re-analysis of the deposited data

Results flagged for a closer look

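The HO effect differed between yolk sac and embryo (yolk sac minus embryo, log2, edgeR test of the difference over 20543 genes) for 15 genes in the null line and 9 in the CD line. In the null line Zfp760 differed by 1.94, Zfp772 by 1.70, Zfp820 by 1.17, Zfp954 by 1.14, Zfp995 by 0.87, Zfp944 by 0.85, Zfp612 by 0.81, Zfp846 by 0.80, Zfp606 by 0.79, Zfp655 by 0.77, Zfp952 by 0.69 and Zfp740 by 0.39. The 3 genes with a lower effect in null yolk sacs were Zfp987 (-5.01), Zfp608 (-1.16) and Zfp951 (-0.87). In the CD line the differences were 3.88 for Zfp773, 2.35 for Zfp760, 1.64 for Zfp974, 1.27 for Zfp995, 1.26 for Zfp820, 0.98 for Zfp606, 0.87 for Zfp655, 0.80 for Zfp839 and 0.75 for Zfp846. The null values rest on yolk sac libraries labelled WT whose Setd2 level was that of HE. With a term for sex, the null differences of Zfp606 (0.64), Zfp740 (0.35), Zfp952 (0.70), Zfp954 (0.95) and Zfp995 (0.93) were not called. The null difference of Zfp952 was lost too without any 1 library of the contrast (0.65 to 0.73). That of Zfp740 was lost with no filter, with a replicate block and with the groups of the contrast alone. No CD difference was called with a term for sex, although those of Zfp606 (1.05), Zfp655 (0.94), Zfp846 (0.75) and Zfp995 (1.57) were as large or larger with it. Those of Zfp760 (1.62), Zfp773 (2.30), Zfp820 (0.63) and Zfp974 (0.86) were smaller. The value of Zfp987 rests on the embryo counts through which it passed the count minimum.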

How the results depend on the processing

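With 2 libraries per group, yolk sac counts and single weak calls depended most on the fit. Null embryo falls and rises stayed within 1.5 times of 55 and 21 in every alternative run, and leaving out 1 library gave 47 to 58 falls and 14 to 23 rises. CD embryo falls were 27 and rises 5 with a sex term, and 30 to 46 and 3 to 5 without 1 library. Null yolk sac rises were 2 with a sex term and 0 to 2 without 1 library, and falls were 3 with DESeq2, 3 with no filter, 3 with a replicate block and 1 with the groups of the contrast alone. CD yolk sac rises were 4 with no filter, 0 with a sex term, 0 with those groups alone, 1 against HE, 0 at a mean count of 50 or more and 0 to 5 without 1 library. CD yolk sac falls were 3 with DESeq2, 3 with no filter, 3 with a replicate block, 0 with a sex term, 0 with those groups alone, 2 against HE and 0 in each fit without 1 library. For CD HE embryos no filter gave 1 call and leaving out 1 library 0 to 2. The line difference in embryos had 1 call with no filter and 0 to 5 without 1 library. The WT difference in embryos had 1 with DESeq2, 4 with no filter and 0 to 6 without 1 library, and in yolk sacs 1 with DESeq2 and 1 with no filter. The null tissue difference had 9 calls with those groups alone and 7 to 18 without 1 library. The CD tissue difference had 16 with DESeq2, 0 with a sex term, 2 with those groups alone and 3 to 13 without 1 library. The causes were not tested. Replicate numbers did not pair the samples (correlations of deviations -0.043 to 0.078 in embryos, -0.055 to 0.17 in yolk sacs), and with them as a replicate block 56 fell and 22 rose in null embryos and 45 and 9 in CD embryos. Of 87 called values of named genes, none reversed, 27 lost their call with the sex term, 25 with the groups of the contrast alone and 2 with the block. Without genes that have near-identical copies, an alternative chosen after seeing the data, 53 fell and 15 rose in null and 41 and 7 in CD embryos.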
